A study of Mus musculus with 6 samples.

Results

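The genes described here mark the stem cells at the base of the intestinal crypt or carry the Wnt signal that maintains them. A probe set counted for a gene when the platform annotation gave it that gene's symbol and no other, and a gene with several such probe sets would have been read from the one with the highest mean over all arrays. Of 34 listed genes, 32 were found in this way among 19938 genes on the array, each with 1 probe set. The other 2, Ephb2 and Tcf7, were not analysed here.

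Expression was measured on 6 Affymetrix arrays of EpCAM+CD45- epithelial cells sorted from the colon of wild-type male BALB/c mice aged 6 weeks. All mice had been starved for 36 h and re-fed for 24 h. For 3 samples the mice received antibiotics while they were re-fed, called antibiotics below, and for the other 3 they received none, called re-fed. The samples are biological replicates by their titles, which do not give the number of mice in each, and the antibiotics are not named. All groups were starved and re-fed, so no sample shows the colon of a mouse that was never starved.

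In the crypt, Wnt ligands bind Frizzled receptors and their co-receptors Lrp5 and Lrp6. This stops the complex of Apc, axin and the kinase Gsk3b from destroying β-catenin (Ctnnb1), which then enters the nucleus and acts with transcription factors of the TCF/LEF family. R-spondins, bound by Lgr4 and Lgr5, raise the signal by removing the ubiquitin ligases Rnf43 and Znrf3 from the cell surface, and several targets of the pathway act back on it as inhibitors. Cells lose the signal and the stem cell genes as they move up the crypt and differentiate.

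Values are log2 expression after quantile normalisation, and differences are antibiotics minus re-fed. Levels of different genes are not compared, since probe sets differ in their response. Epcam stood at 12.12 ± 0.065 with antibiotics and 12.16 ± 0.11 in re-fed samples (SD, n = 3 each), while Ptprc, which encodes CD45, lay under the floor for dim signal (5.81) in both groups. Of the markers of other cells, 8 of 11 leukocyte genes and 7 of 14 stromal and endothelial genes were dim. Of all 19938 genes, 12071 lay at or above the floor. The mean level of the leukocyte list lay between 5.43 and 5.49 with antibiotics and between 5.44 and 5.45 in re-fed samples. The stromal and endothelial mean lay above the floor, at 5.83 to 6.05 with antibiotics and 5.87 to 6.03 in re-fed samples. Of small-intestinal and Paneth cell genes 6 of 10 were dim, among them Lyz1, Defa24 and Sis, while Fabp2 and Alpi stood well above the floor. Fabp2 lay between 9.74 and 11.09 with antibiotics and between 10.35 and 11.54 in re-fed samples, and Alpi between 8.71 and 9.69 with antibiotics and between 8.97 and 10.14 in re-fed samples. In the deposited values, 4 arrays (antibiotics 1 and 2, re-fed 2 and 3) shared 372 to 435 identical values per pair. Re-fed 1 shared 154 to 198 with them. Antibiotics 3 held 10829 distinct values, against 34568 to 34596 in each of the other arrays, and shared 42 to 67 with any of them. As a share of the smaller set of distinct values, this came to 0.388% to 0.619% for pairs with antibiotics 3 and 0.445% to 0.573% for pairs of re-fed 1 with the 4 arrays, against 1.08% to 1.26% among the 4. The 4 arrays are called the common run below. The labels name no normalisation run, so this name rests on the shared values alone. Differences within the 4 arrays are given where they depart from those over 6 arrays.

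No gene of the set passed the test between the groups. Of 12071 genes above the floor, 7 had an adjusted p under 0.05 (0.058%; limma, Benjamini-Hochberg), and 0 of the 28 stem cell and Wnt genes tested were among them. Their smallest adjusted p was 0.24, for Myb. At an unadjusted p under 0.05, limma placed 6 of the 28 higher with antibiotics and 0 lower, against 5.3% of all genes higher and 7.32% lower. All 6 were stem cell markers (Myb, Kcne3, Msi1, Smoc2, Ephb3 and Cdca7), which is 46.2% of the 13 markers tested. The values of the groups did not overlap for 6 of the 28 genes, 4 of them stem cell markers, all higher with antibiotics, beside 8.88% of all genes higher and 10.7% lower. In bulk samples of this kind, more cells of a type and more RNA per cell cannot be told apart.

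**Figure D1:**
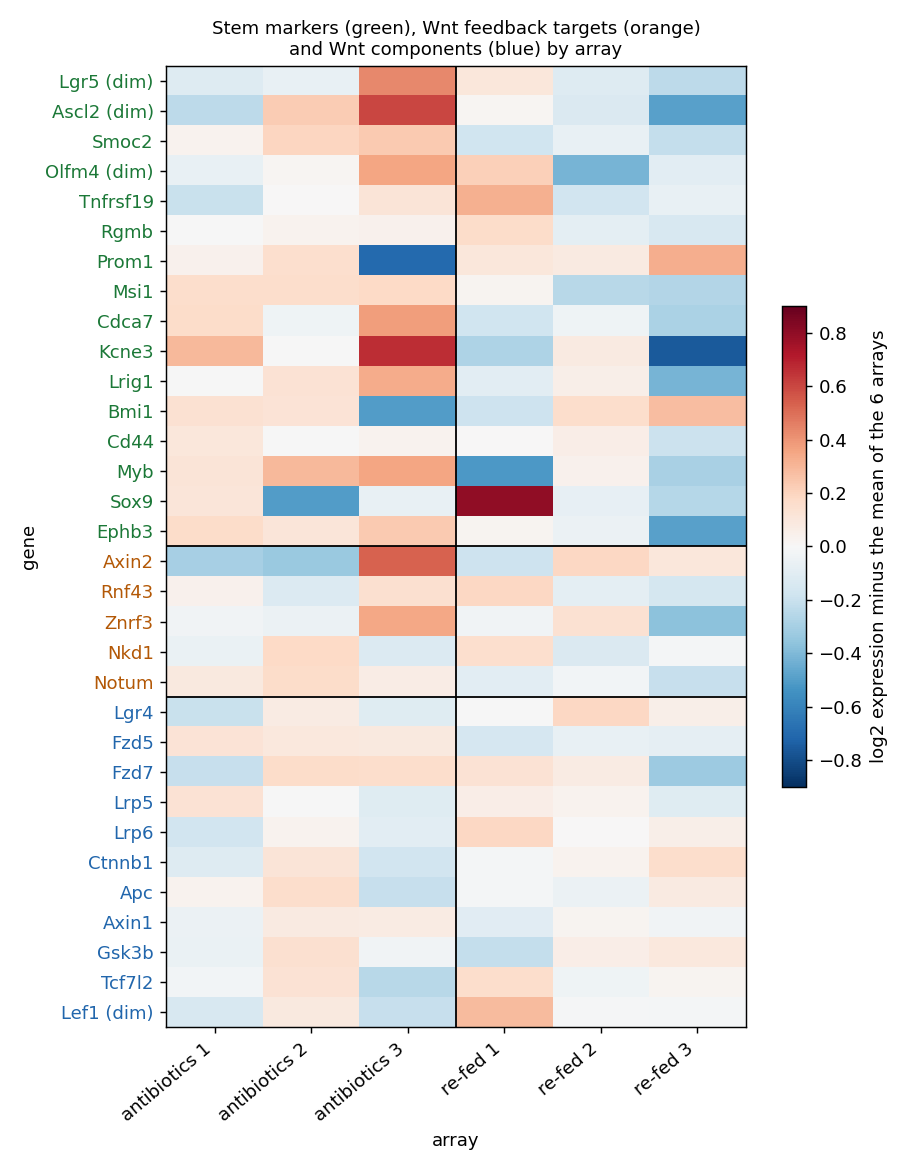
Log2 expression of the 32 genes found, as the deviation from the gene's mean over 6 arrays (colour), with arrays in columns (antibiotics left, re-fed right) and genes in rows by role. Stem markers such as Myb, Kcne3 and Ephb3 are above their mean in antibiotics 3 and below it in re-fed 3, and antibiotics 3 stands alone in Prom1 and Axin2; genes marked dim lie under the signal floor.

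The markers of crypt-base stem cells lay higher with antibiotics as a median, while the Wnt components did not. The median difference was 0.31 over 13 stem cell markers (9 above 0 and 4 below), 0.038 over 5 Wnt feedback targets (4 above 0) and 0.00071 over 10 Wnt components (5 above and 5 below), beside 0.0033 over all genes. These medians describe the lists and carry no test. The stem marker values averaged 0.084, 0.050 and 0.10 above the 6-array mean in antibiotics replicates 1 to 3, and 0.00022, -0.020 and -0.21 in re-fed replicates 1 to 3. Re-fed 3 stood lowest, and it was the lowest array for 8 of the 13 markers (61.5%, beside 13% of all genes). Antibiotics 3 was the highest for 7 of the 13 (53.8%, beside 22.7% of all genes). Without antibiotics 3 the median was 0.22, with 10 of 13 above 0. In that fit 3 of the 6 markers named above kept an unadjusted p under 0.05 in limma, beside 6.37% of all genes higher. Without re-fed 3 the median was 0.18, and 1 of the 6, Myb, kept such a p, beside 3.81% of all genes higher. In the common run the stem marker median was 0.22, with 10 of 13 above 0, and 3 of the 6 (Msi1, Ephb3 and Myb) had such a p, where 8.13% of all genes did in that direction.

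The level of the lists depended on the scaling. In the deposited values as they stand, the median of all genes lay at -0.12, that of the stem markers at 0.12 and that of the Wnt components at -0.19. Relative to all genes this placed the stem markers at 0.24 and the components at -0.071. With each array centred on its median, the stem markers lay at 0.16 and the components at -0.15, since centring moves all genes of an array alike and leaves the distance between lists as it was. At an unadjusted p under 0.05, limma placed 20 genes higher and 445 lower in the deposited scaling and 231 higher and 1741 lower after centring, against 640 higher and 884 lower after quantile normalisation. Of the 6 markers, 0 had such a p in the deposited scaling and 3 after centring. All 6 differences stayed above 0 in both, though the 6 were picked by their p in these same arrays. In the deposited scaling limma gave each of the 28 genes tested the same SE, 0.27, so their p there followed the size of the difference alone.

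**Figure D2:**
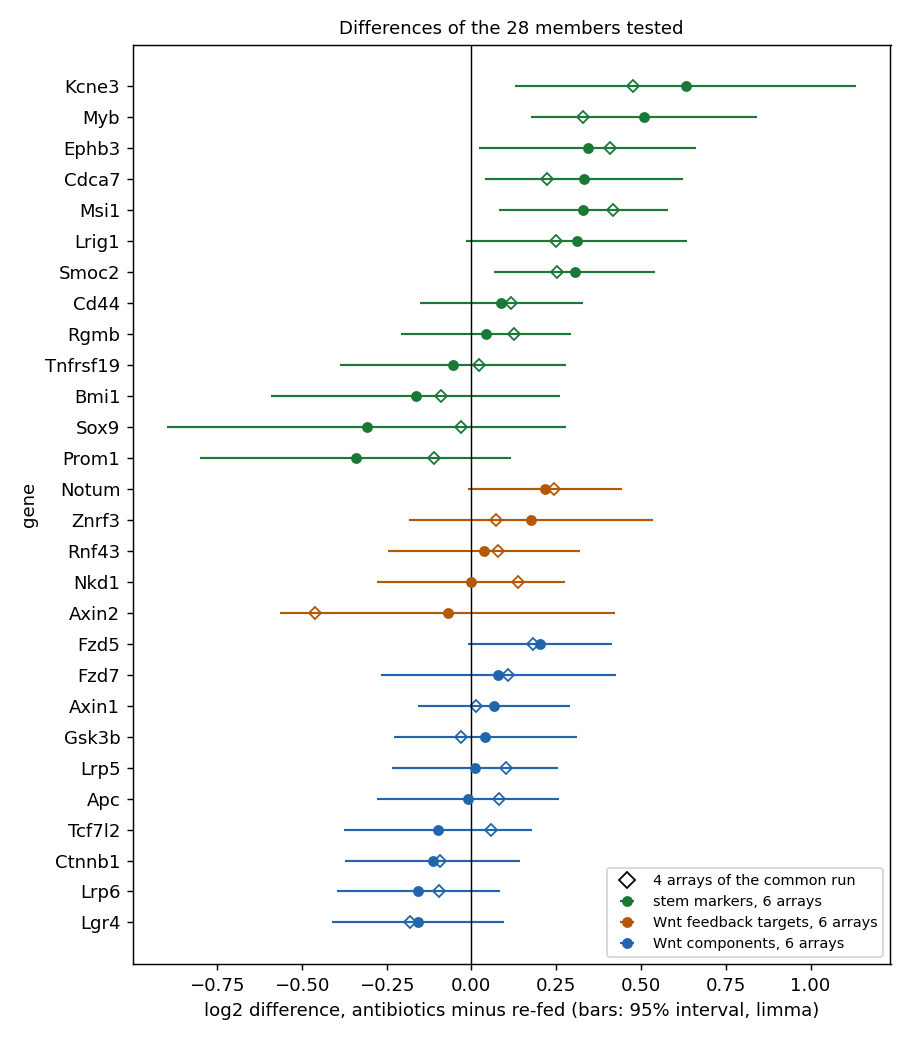
Log2 difference, antibiotics minus re-fed, of the 28 genes tested (x axis), by gene (y axis) and role (colour), with 95% intervals from limma over 6 arrays, and open diamonds for the 4 arrays of the common run. Intervals of 6 stem markers lie above 0, those of all 10 Wnt components include 0, and Axin2 is the gene whose diamond (-0.46) lies farthest from its point (-0.070).

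Among the transcription factors of the stem cell and progenitor, Myb, which the crypts of the colon need to renew, read 8.42, 8.60 and 8.66 with antibiotics, against 7.79, 8.35 and 8.02 in re-fed samples. Every antibiotics array stood above every re-fed one, with re-fed 2 closest. The difference of 0.51 (SE 0.15, 95% interval 0.18 to 0.84, limma adjusted p = 0.24), a 1.42-fold higher level, was the one with the smallest p in the set. Within the common run it came to 0.33 (adjusted p = 0.276). Sox9, which marks stem and progenitor cells and is itself under Wnt control, read 9.33, 8.72 and 9.15 with antibiotics, against 10.02, 9.14 and 8.96 in re-fed samples. Re-fed 1 stood alone at the top, and the difference was -0.31 (SE 0.26) over 6 arrays but 0.013 without that array. Ascl2, the basic helix-loop-helix factor that fixes stem cell identity, was dim, with 5.11, 5.58 and 5.95 under antibiotics, against 5.37, 5.22 and 4.86 in re-fed samples, and the groups overlapped.

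Promoter letters are shown for Myb and Cdca7, the 2 genes among the 6 whose window held a match to the letters of the cell cycle factor E2F, and for Fzd7, as a gene with a match to the letters of TCF/LEF. They come from RefSeq (GRCm38.p6, the reference strain C57BL/6J). Windows of 250 bases before a start were used for 24 of the 34 genes, 36 windows in all. The chromosome of Apc was left out for these genes, while the shares of all windows leave none out. The TCF/LEF letters searched on both strands were CTTTG followed by 2 bases, each A or T. They occurred in 4 of the 36 windows (11.1%), against 14.8% of all windows in the table, and in none of those of Myb, Cdca7, Ephb3 and Kcne3. The E2F letters, chosen after the sequences had been seen, were the 8-base word TTTCCCGC, its variants TTTCGCGC and also TTTGGCGC, as well as the form TTTGGCGG. They occurred in 2 of the 36 (5.56%), against 1.96% of all windows. With letters chosen from the sequences themselves, these shares cannot show an excess. A match describes letters, not a bound site. The stretches run 5′ to 3′ on the gene's strand, end before the gene's outermost start in RefSeq, and carry the match in capitals.
Myb (chr10:21160985-21161234, minus strand): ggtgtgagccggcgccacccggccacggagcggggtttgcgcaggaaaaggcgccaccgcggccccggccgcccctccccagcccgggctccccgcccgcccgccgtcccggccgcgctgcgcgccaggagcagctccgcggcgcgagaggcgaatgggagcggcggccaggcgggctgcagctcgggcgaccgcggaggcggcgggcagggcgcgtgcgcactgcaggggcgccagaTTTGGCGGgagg
Cdca7 (chr2:72475969-72476186, plus strand): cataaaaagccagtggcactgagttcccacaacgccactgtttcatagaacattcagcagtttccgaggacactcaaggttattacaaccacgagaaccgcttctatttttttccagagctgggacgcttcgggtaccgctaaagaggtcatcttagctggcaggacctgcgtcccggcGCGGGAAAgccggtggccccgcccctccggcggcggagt
Fzd7 (chr1:59481897-59482146, plus strand): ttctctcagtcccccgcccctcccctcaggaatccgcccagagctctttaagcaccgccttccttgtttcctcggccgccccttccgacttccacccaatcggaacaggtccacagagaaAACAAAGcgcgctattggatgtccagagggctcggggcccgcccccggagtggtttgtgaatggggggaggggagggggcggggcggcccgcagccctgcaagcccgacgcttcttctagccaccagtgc

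Cdca7, a zinc-finger protein known as a target of Myc, read 7.98, 7.78 and 8.19 with antibiotics, against 7.64, 7.78 and 7.53 in re-fed samples. Re-fed 2 lay just above antibiotics 2, by less than the rounding shows, so the groups overlapped. The difference was 0.33 (SE 0.13, adjusted p = 0.346). Msi1, an RNA-binding protein of stem and progenitor cells, read 6.35, 6.35 and 6.37 with antibiotics, against 6.21, 5.94 and 5.93 in re-fed samples. The antibiotics arrays were nearly equal and all above the re-fed ones, of which re-fed 1 was the highest. The difference was 0.33 (SE 0.11, adjusted p = 0.289) over 6 arrays and 0.42 in the common run (adjusted p = 0.116). Bmi1, a Polycomb protein, differed by -0.16 (SE 0.19), with antibiotics 3 at 6.58, against 7.22 and 7.20 in the other antibiotics arrays and 6.89 to 7.36 in re-fed samples.

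Of the surface and secreted markers, Kcne3, a potassium channel subunit used in chloride secretion by crypt cells, had the widest difference of the set. It read 9.82, 9.52 and 10.19 with antibiotics, against 9.25, 9.61 and 8.77 in re-fed samples. Re-fed 2 lay above antibiotics 2, so the groups overlapped, and the difference of 0.63 (SE 0.22, adjusted p = 0.301), or 1.55-fold, was 0.41 without re-fed 3. Ephb3, an ephrin receptor that holds cells in their place along the crypt, read 7.86, 7.80 and 7.93 with antibiotics, against 7.72, 7.64 and 7.20 in re-fed samples. The groups were apart by less than the distance between re-fed 2 and re-fed 3 (0.34, SE 0.14, adjusted p = 0.369). Smoc2, a secreted matrix protein of the crypt base, read 6.59, 6.75 and 6.79 with antibiotics, against 6.38, 6.49 and 6.34 in re-fed samples. Its groups did not overlap either, and the difference was 0.31 (SE 0.11, adjusted p = 0.295).

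**Figure D3:**
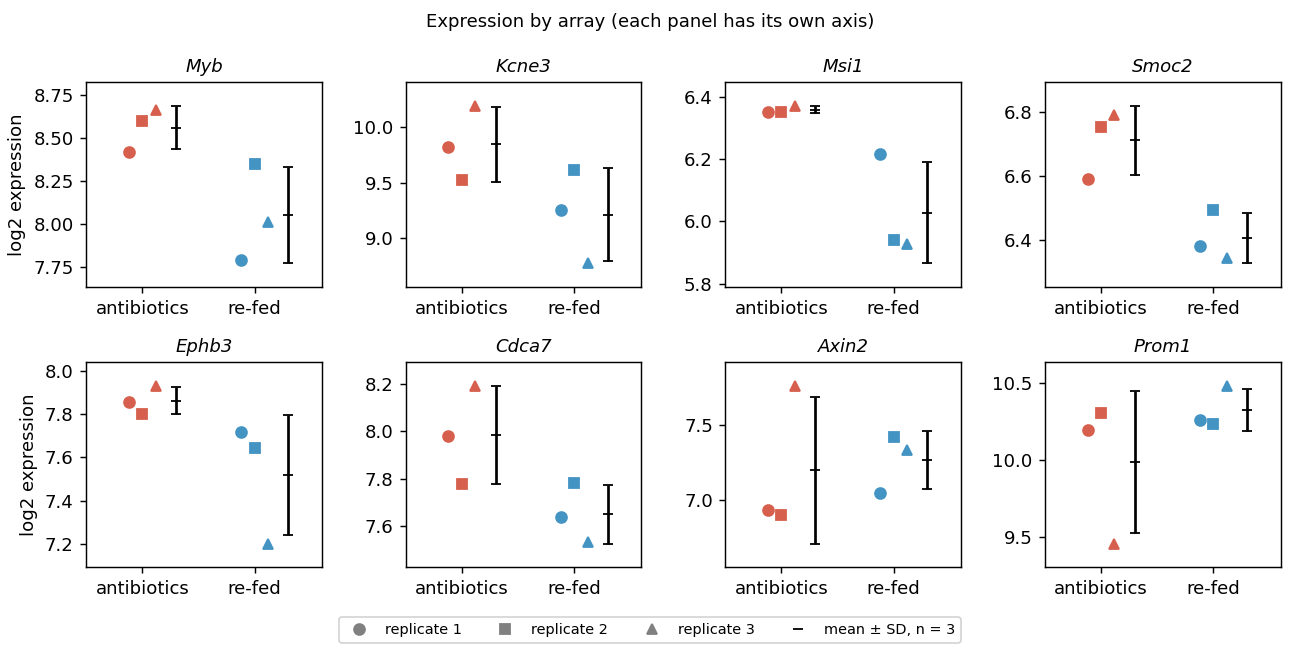
Log2 expression of 8 genes in each array (points, by replicate number), antibiotics left and re-fed right, with the mean and SD of 3 arrays beside them; each panel has its own y axis. Msi1 shows nearly equal antibiotics arrays (6.35 to 6.37), while in Axin2 and Prom1 antibiotics 3 (7.76 and 9.46) stands apart from the other 2 antibiotics arrays.

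Lrig1, a membrane protein that restrains ErbB receptors in stem cells, read 8.49, 8.63 and 8.83 with antibiotics, against 8.40, 8.55 and 8.08 in re-fed samples, an overlap of antibiotics 1 with re-fed 2 (0.31, SE 0.14, adjusted p = 0.418). Prom1 (CD133), a glycoprotein of membrane protrusions, read 10.20, 10.31 and 9.46 with antibiotics, against 10.26, 10.24 and 10.48 in re-fed samples. Antibiotics 3 stood alone at the bottom, and the difference was -0.34 (SE 0.20) over 6 arrays and -0.11 in the common run. The hyaluronan receptor Cd44 differed by 0.088, the BMP co-receptor Rgmb by 0.043 and Tnfrsf19 (Troy), a receptor of the TNF family, by -0.053, with intervals that reached from -0.39 to 0.33 over the 3 genes. Such intervals do not show that these genes were alike in the groups.

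The receptor Lgr5, the defining marker of the crypt-base columnar cell, and Olfm4, a secreted protein that marks these cells in the small intestine of the mouse, were dim and not tested. Lgr5 read 5.56, 5.62 and 6.12 with antibiotics, against 5.78, 5.56 and 5.45 in re-fed samples. Only antibiotics 3 exceeded the highest re-fed array, and that array was also the highest for Ascl2 and for Olfm4 (5.35, against 4.57 to 5.20 in re-fed samples). When dim genes were kept in the fit, 0.01% of genes passed, and limma's adjusted p was 0.811 for Lgr5, 0.656 for Ascl2 and 0.782 for Olfm4. With these 3 genes the stem marker median was 0.25.

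Of the 5 targets of the pathway that act back on it, 0 had an unadjusted p under 0.05 in limma over 6 arrays. Axin2, the inducible scaffold of the destruction complex and the usual readout of Wnt activity, read 6.93, 6.90 and 7.76 with antibiotics, against 7.05, 7.42 and 7.33 in re-fed samples. Its highest and its 2 lowest arrays were all from antibiotics mice. Over 6 arrays the difference was -0.070 (SE 0.22, 95% interval -0.56 to 0.42, limma adjusted p = 0.92). Within the common run it was -0.46 (SE 0.10, adjusted p = 0.0977), the gene of the set nearest to the threshold there, where 0 of the 28 passed and 0.447% of all genes did. It was also the 1 gene of the set with an unadjusted p under 0.05 on the lower side in that fit, as were 9.25% of all genes. Without antibiotics 3 alone it was -0.35 (adjusted p = 0.294).

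Notum, an enzyme that inactivates Wnt ligands by removing their lipid, read 6.05, 6.13 and 6.03 with antibiotics, against 5.87, 5.94 and 5.75 in re-fed samples. The groups did not overlap, at levels near the floor for dim signal and with re-fed 3 below it (0.22, SE 0.10, adjusted p = 0.415). The ubiquitin ligase Znrf3 differed by 0.18 (SE 0.16), with antibiotics 3 highest at 6.92, and its relative Rnf43 by 0.038 (SE 0.13). Nkd1, which binds Dishevelled, had the same mean in both groups over 6 arrays, 6.28 (difference 0.00012, SE 0.12), and differed by 0.14 (SE 0.12) in the common run.

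The components that carry the signal showed small differences in both directions. The receptor Fzd5 was the 1 of them whose groups did not overlap, with 9.14, 9.11 and 9.10 under antibiotics, against 8.86, 8.95 and 8.93 in re-fed samples. Its arrays varied little within a group, and the difference was 0.20 (SE 0.095, adjusted p = 0.418), and 0.038 after centring. In the deposited scaling it was -0.00030, where the median of all genes lay at -0.12. Fzd7 differed by 0.079 and the co-receptors Lrp5 and Lrp6 by 0.012 and -0.16. The R-spondin receptor Lgr4 read 10.72, 11.00 and 10.82 with antibiotics, against 10.92, 11.11 and 10.98 in re-fed samples (-0.16, SE 0.11), and the groups overlapped.

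β-catenin itself, Ctnnb1, read 11.93, 12.17 and 11.88 with antibiotics, against 12.03, 12.08 and 12.20 in re-fed samples (-0.11, SE 0.11, adjusted p = 0.715). The parts of the destruction complex stood close to 0, with Apc at -0.010, Axin1 at 0.067 and Gsk3b at 0.041. Of the nuclear partners, Tcf7l2, the main TCF of intestinal epithelium, differed by -0.098 (SE 0.12), and Lef1 was dim at 5.52 ± 0.16 with antibiotics and 5.69 ± 0.17 in re-fed samples (SD, n = 3 each). Over the 10 components tested, the 95% intervals ran from -0.41 at the lowest to 0.43 at the highest. Differences beyond these bounds lay outside every interval. These are RNA levels, and the pathway is controlled largely through the stability of β-catenin protein, which arrays do not measure.

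Other genes of the Wnt pathway lay on both sides of 0, and their groups of roles differed in median. Of 109 further genes listed, 79 were tested, with a median of 0.018. At an unadjusted p under 0.05 limma placed 5 higher (6.33%) and 4 lower (5.06%), and 0 passed after adjustment. Of 9 other Wnt receptors tested, 7 lay above 0 (median 0.14). The groups did not overlap in 4 of them, all higher (44.4%, beside 8.88% of all genes). For 1 of the 4, Lgr6, the mean was 6.00 with antibiotics but under the floor in re-fed samples (5.74). Another 4 receptors were dim, and with all 13 in the fit 8 lay above 0, with a median of 0.046. Of 18 other cytoplasmic genes tested, 13 lay below 0 (median -0.077), and the groups did not overlap in 6 lower ones (33.3%, beside 10.7%) and 3 higher ones (16.7%, beside 8.88%). The medians were 0.060 for the receptors and -0.23 for the cytoplasmic genes in the deposited scaling, where that of all genes lay at -0.12. Relative to all genes, the receptors lay at 0.18 there and the cytoplasmic genes at -0.12, against 0.14 and -0.080 after quantile normalisation. The 3 higher ones with the smallest p were Slc12a2, a chloride importer of crypt cells (0.63, SE 0.22), the corepressor Ctbp1 (0.39, SE 0.14) and the secreted Wnt antagonist Sfrp1 (0.39, SE 0.14). Slc12a2 read 9.47, 9.04 and 9.83 with antibiotics, against 9.05, 8.99 and 8.43 in re-fed samples, again with antibiotics 3 highest and re-fed 3 lowest. The 3 lower ones were Id1, an inhibitor of helix-loop-helix factors and a target of BMP signals (-0.40, SE 0.11, adjusted p = 0.227), Ctnnbip1, which keeps β-catenin from TCF (-0.34, SE 0.11, adjusted p = 0.289), and the phosphatase subunit Ppp2r5e (-0.33, SE 0.11). In each of these 3 the groups did not overlap. Id1 read 10.42, 10.31 and 10.50 with antibiotics, against 10.94, 10.66 and 10.85 in re-fed samples. Of 25 genes for Wnt ligands, their secretion and R-spondins, 11 were dim, while 12071 of all 19938 genes lay at or above the floor.

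Beside the stem cell markers, markers of dividing cells had a median above 0 and those of mature cells medians below 0. A list of general epithelial markers also lay below 0, with a median of -0.069 and 9 of 11 below 0. In that list the groups did not overlap in 4 lower genes (36.4%, beside 10.7% of all genes) and 1 higher one (9.09%, beside 8.88%). All 13 proliferation markers tested lay above 0, with a median of 0.32. Of the 13, 5 had an unadjusted p under 0.05 in limma (38.5%, beside 5.3% of all genes higher), and 0 passed after adjustment. The list's mean deviation was 0.14, -0.14 and 0.52 in antibiotics replicates 1 to 3, and -0.27, -0.091 and -0.16 in re-fed replicates 1 to 3. Antibiotics 3 thus led both lists, while antibiotics 2 lay above the re-fed arrays in stem markers but between them in proliferation markers. In the common run the proliferation median was 0.15, with 12 of 13 above 0 and Top2a at -0.26. There 2 of the 13 were higher at an unadjusted p under 0.05 in limma, beside 8.13% of all genes. Mki67 read 8.09, 8.03 and 8.84 with antibiotics, against 7.56, 8.10 and 7.80 in re-fed samples, and differed by 0.50 over 6 arrays (adjusted p = 0.387) and 0.11 in the common run. Goblet and deep secretory markers had a median of -0.20, with 8 of 9 below 0. In limma 3 of 9 were lower at an unadjusted p under 0.05 (33.3%, beside 7.32% of all genes), and 1 passed the adjusted threshold. These 3, named after their values were seen, were Retnlb, which passed, Ang4 and Spink4. Absorptive colonocyte markers had a median of -0.072, with 7 of 12 below 0 and 5 of 12 lower at an unadjusted p under 0.05 in limma (41.7%, beside 7.32% of all genes). In these 5, also named after their values were seen, the groups did not overlap (41.7% of the list lower, beside 10.7% of all genes). They were Cyp2c55, the sodium channel subunit Scnn1a, the sodium-proton exchanger Slc9a3, the keratin Krt20 and the water channel Aqp8. The list went both ways, and the 5 markers above 0 were Saa1 (0.30), Ceacam20 (0.12), Car4 (0.040), Muc3 (0.033) and Slc26a3 (0.016). The 4 small-intestinal genes above the floor had a mean deviation of -0.15, 0.25 and -0.43 in antibiotics replicates 1 to 3, and -0.15, 0.024 and 0.46 in re-fed replicates 1 to 3. Antibiotics 3 was thus the lowest array of that list and re-fed 3 the highest, the reverse of their places among the stem markers. The part of dividing, mature or small-intestinal cells in the stem marker differences was not tested.

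**Figure D4:**
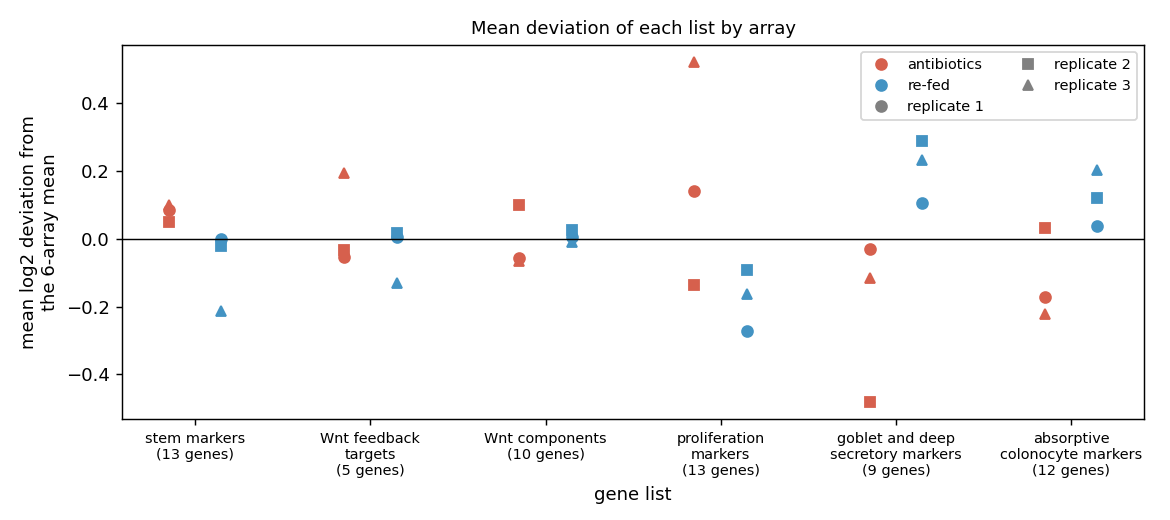
Mean log2 deviation from the 6-array mean (y axis) of each gene list (x axis) in each array, antibiotics left and re-fed right within a list. The stem marker points of antibiotics (0.050 to 0.10) lie above those of re-fed (-0.21 to 0.00022), the Wnt component points overlap, and antibiotics 3 stands highest in proliferation markers (0.52).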

How the data were processed

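The authors deposited log2 values for 35557 probe sets on 6 arrays, made with RMA, per the submitters' processing notes, from 6 µg of total RNA, per the labels' protocols. RMA's version was not given in the sources used here. Array medians of the deposited values differ (5.63 to 6.17), so the 23410 probe sets that the platform annotation ties to a gene were quantile-normalised. Of these, 21789 named 1 gene and gave 19938 genes, and 12071 genes with a mean at or above the 40th percentile of probe sets were tested. Symbols were checked through RefSeq (0 changed). Groups come from the sample titles. The test was limma 3.58.1 under R 4.3.3 (eBayes, two-sided, no block, Benjamini-Hochberg over all genes tested). It was checked on simulated data with noise independent between arrays and planted differences wider than any in the set. That check does not cover differences as small as those of the set. An exact permutation test of 3 against 3 arrays cannot go below p = 0.1 and was not used. The number of arrays limits the precision; the median SE was 0.12. The common run was inferred from shared values, not labels. All genes of the set are named, with up to 3 other pathway genes per direction by unadjusted p, Epcam, Ptprc and Mki67. Alternatives were deposited scaling, median centring, no or a stricter filter (60th percentile), the mean of a gene's probe sets, the common run, a replicate block and leaving out each array. The genes and lists were chosen with earlier results of these data known.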

Additional observations from a re-analysis of the deposited data

How the results depend on the processing

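In every setting listed, 0 genes of the set passed limma's adjusted threshold, and the 6 stem markers named first stayed above 0 wherever they were tested (4 of them with the stricter filter). The 6 were picked by their p over these same arrays, so their stable sign is no independent check. The genes past the threshold numbered 45 in the deposited scaling (3 higher, 42 lower), 62 after median centring (4 higher, 58 lower), 2 with no filter, 43 with the stricter filter and 54 in the common run, against 7 over 6 arrays (1 higher, 6 lower). Leaving out 1 array gave 0 to 11, and the fit with 0, without antibiotics 1, had 1040 genes at an unadjusted p under 0.05. Genes of the set with such a p numbered 1 of 28 in the deposited scaling (Prom1, lower), beside 3.85% of all genes in either direction. Without 1 array they numbered 1 to 6 of 28, the lowest without re-fed 3, beside 8.52% to 14% of all genes. The stem marker median was 0.12 in the deposited scaling, 0.16 after centring and 0.18 to 0.33 without 1 array. The component median was -0.19 and -0.15 in those scalings. The median of feedback targets ran from -0.010 to 0.14 without 1 array. Fzd5 turned to -0.00030 in the deposited scaling, where the median of all genes lay at -0.12, and was 0.038 after centring. Sox9 turned to 0.013 without re-fed 1 and reached -0.52 without re-fed 3. In the common run 4 of the 28 genes took the other sign. They were Tcf7l2 (0.057), Apc (0.080), Gsk3b (-0.030) and Tnfrsf19 (0.022), and for each the difference over 6 arrays was within its SE. The causes of these shifts were not tested.

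The sample titles do not state whether same-numbered samples were paired. Deviations of same-numbered arrays correlated at 0.021, -0.034 and -0.22. These correlations cannot decide the question, since the deviations within a group depend on each other. With the replicate number as a block, 7 genes passed. Then 4 of the 28 genes of the set had an unadjusted p under 0.05 in limma, all higher, beside 4.23% of all genes higher. Without the block 6 did, beside 5.3%.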

Other observations

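The caudal-type homeobox factors of intestinal identity, named after their values were seen, stood on opposite sides. Cdx1, a known target of Wnt signals, read 9.39, 9.09 and 9.46 with antibiotics, against 9.03, 8.99 and 8.93 in re-fed samples (0.33, SE 0.12, limma adjusted p = 0.32). Cdx2 read 9.72, 9.38 and 9.53 with antibiotics, against 9.82, 9.87 and 9.90 in re-fed samples (-0.32, SE 0.11, limma adjusted p = 0.301). In both genes the groups did not overlap, and the differences were 0.28 for Cdx1 and -0.34 for Cdx2 in the common run. Neither passed the threshold, and the contrast between the genes was not tested.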
